A study of Homo sapiens with 6 samples.

Results

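The chromosome 19 long arm carries several clusters of zinc finger genes with ZNF symbols, and their RNA levels were compared in T24, a long-established cell line from a human bladder carcinoma, between 3 libraries of cells given a control small interfering RNA (siNC, genotype labelled WT) and 3 of cells given siUSP43 (labelled USP43 knockdown). The genes were chosen by symbol (ZNF, a number and at most 1 letter), by position (chromosome 19, start at base 26000000 of GRCh38 or later) and by level, with a mean over the 6 libraries of at least 0.5 FPKM (fragment counts scaled to exon length and to the library's total). Of 174 such rows at any level, 127 met the floor, out of 63241 genes in the table. The level that chose them averages both groups and is not the contrast described here. All 6 libraries carry the same batch label, and siNC and siUSP43 cells differ, per the labels, only in the small interfering RNA. Separate cultures are not stated for the replicates, nor a common duplex for the siUSP43 samples, and p-values therefore reflect the variation among these 6 libraries alone, part or all of which may be technical.

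Most of these genes encode C2H2 zinc finger proteins, in which a pair of cysteines and a pair of histidines hold a zinc ion and each finger reads a few bases of DNA. Many also carry a KRAB domain, which binds the corepressor TRIM28 (KAP1). TRIM28 in turn recruits the histone methyltransferase SETDB1 and HP1 proteins, and is best known for silencing transposable elements. The clusters grew by tandem duplication, so neighbours are often close copies of each other, and the genes themselves are known targets of H3K9 methylation.

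The repeated unit can be seen in the finger sequences of the genes with the largest changes, shown because genes with like fingers moved together in some pairs and apart in others. Each line gives the coding strand of the first finger that is followed by the conserved linker, taken from GENCODE 29 transcripts (GRCh38), with the codons of the zinc-binding cysteines and histidines in capitals.
ZNF813 (chr19:53490965-53491042, plus strand): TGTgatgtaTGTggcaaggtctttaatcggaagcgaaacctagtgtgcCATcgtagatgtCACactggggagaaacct
ZNF468 (chr19:52841484-52841561, minus strand): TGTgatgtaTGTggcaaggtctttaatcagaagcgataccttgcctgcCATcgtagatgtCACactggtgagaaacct
ZNF765 (chr19:53408288-53408365, plus strand): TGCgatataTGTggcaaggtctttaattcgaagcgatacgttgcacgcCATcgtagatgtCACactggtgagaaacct
ZNF415 (chr19:53109232-53109309, minus strand): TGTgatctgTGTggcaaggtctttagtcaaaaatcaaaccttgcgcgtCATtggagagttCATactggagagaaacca
ZNF83 (chr19:52614121-52614198, minus strand): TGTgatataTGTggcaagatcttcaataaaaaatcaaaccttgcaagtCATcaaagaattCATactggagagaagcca
ZNF616 (chr19:52116276-52116353, minus strand): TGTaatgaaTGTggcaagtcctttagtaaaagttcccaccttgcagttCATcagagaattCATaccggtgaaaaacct
ZNF331 (chr19:53576957-53577034, plus strand): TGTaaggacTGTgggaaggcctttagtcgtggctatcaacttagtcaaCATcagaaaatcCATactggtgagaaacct
All 7 genes lie in the same cluster. ZNF813 and ZNF468 shared 72 of these 78 bases and ZNF765 and ZNF468 shared 71, and all 3 genes rose in siUSP43. ZNF415 and ZNF83 shared 65 of 78, and the first rose while the second fell. Other fingers of this cluster came near that, with 60 shared by ZNF415 and ZNF845 and 59 by ZNF616 and ZNF83. ZNF331, which fell, shared 56 with ZNF616, which rose, little above the 54 that ZNF616 shared with ZNF17 of another cluster. Neither ZNF415 and ZNF83 nor ZNF331 and ZNF616 are therefore read as close copies. The fingers compared need not hold the same place in each protein.

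USP43 itself, the targeted deubiquitinase gene (ENSG00000154914), stood at 2.36, 2.09 and 2.08 FPKM in the siNC libraries and at 1.02, 0.67 and 0.80 FPKM in siUSP43. The siUSP43 values all lay below the siNC values, with a log2 fold change of -1.39 (SE 0.14; edgeR, Benjamini-Hochberg adjusted p = 2.874e-06). By exact permutation (two-sided) p was 0.1, the smallest that 3 values a group allow. Gene counts per library ran from 21430574 to 25577200. Of the urothelial and epithelial markers, KRT7, KRT8, KRT18, KRT19 and PPARG were at 1 FPKM or more on average, 5 of 15. KRT5 and KRT20 were at 0, and TP63, CDH1, UPK1A, UPK1B, UPK2 and UPK3A were below 0.1. GATA3, at 0.343 FPKM, was under the floor. On the log2 scale KRT7 and KRT19 each fell by 0.37, KRT8 and PPARG rose by 0.13 and 0.50, and KRT18 did not pass. EPCAM, at 0.587 ± 0.129 FPKM in siNC and 1.24 ± 0.06 in siUSP43 (SD, n = 3 each), rose by 1.06. The summed level of that list was 526 to 544 FPKM in siNC and 469 to 533 in siUSP43. Fibroblast markers summed to 0.77 to 1.02 and 0.88 to 1.00 FPKM, immune markers to 0.89 to 1.06 and 0.41 to 0.56, and endothelial markers to 0.11 to 0.17 and 0.06 to 0.10, with PTPRC at most 0.01 and CD3E at 0. The immune sum was nearly all CD14, which fell by 1.04 on the log2 scale. The part of these markers in the results below was not tested.

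Of the 127 long arm ZNF genes, 56 rose in siUSP43, 7 fell and 64 did not pass the test (edgeR, Benjamini-Hochberg adjusted p under 0.05 over 13420 tested genes). In the same fit 52.5% of all tested genes passed, 26.3% rising and 26.2% falling, so the share of ZNF genes that rose, 44.1%, was above that background and the share that fell, 5.51%, below it. The median log2 fold change was 0.26, with quartiles of 0.00 and 0.52, against -0.01 over all tested genes, and 95 of the 127 estimates were above 0. The 3 siUSP43 values lay above the 3 siNC values for 68 of the genes and below them for 10. Of all tested genes 59.0% were without overlap, 30.4% above and 28.6% below. Most changes were under 2-fold. The risers ran from 0.27 to 1.54 on the log2 scale, and 7 of the 127 genes rose at least 2-fold while none fell that far. Among all 13420 tested genes, 231 rose and 371 fell by at least 2-fold. In bulk RNA a change of this kind cannot be told apart from a change in the share of cells that hold the transcript.

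The shift was present in each library. Taken as the median over the 127 genes of log2 CPM (counts scaled to library size) minus the siNC mean, the siUSP43 libraries stood at 0.28, 0.21 and 0.27, and the siNC libraries at 0.02, 0.01 and -0.03. Over all tested genes the same medians lay between -0.01 and 0.00.

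**Figure D1:**
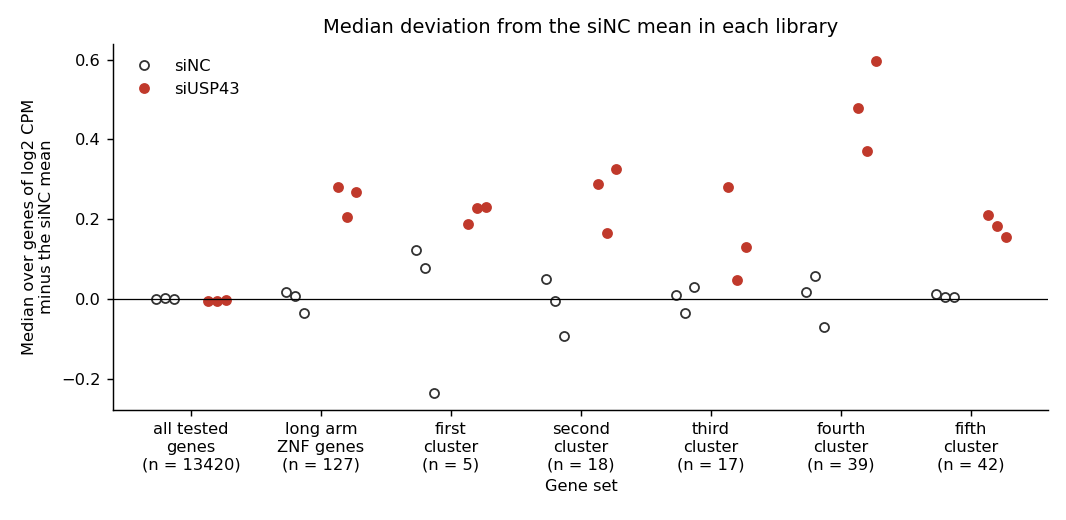
Median over genes of log2 CPM minus the siNC mean (vertical axis) for each library, by gene set; open points are siNC libraries and filled points siUSP43 libraries. For the 127 long arm ZNF genes the siUSP43 libraries sit at 0.21 to 0.28 and the siNC libraries at -0.03 to 0.02, and the fourth cluster holds the highest points, at 0.37 to 0.60.

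The floor bears on few of these calls. Both group means were at 0.5 FPKM or more for 119 genes, of which 50 rose, 7 fell and 62 did not pass. The other 8 had a siNC mean under the floor, so they entered only through siUSP43, and 6 of them rose (ZNF649, ZNF836, ZNF665, ZNF765, ZNF805 and ZNF606, of which the first 4 lie in the fourth cluster described below). ZNF606, just inside the floor, had 0.33, 0.45 and 0.46 FPKM in siNC and 0.71, 0.59 and 0.65 in siUSP43, while ZNF585A and ZNF829, also just inside, had means of 0.46 and 0.50 in siNC and 0.57 in siUSP43. Just outside, ZNF527 had means of 0.52 and 0.46, ZNF132 of 0.32 and 0.60, and ZNF345 of 0.46 and 0.45. Of the 47 rows under the floor, 4 had no read, and of the 43 that could be fitted without a filter ZNF132, ZNF235, ZNF565 and ZNF460 rose, 4 in all, and 1, ZNF837, fell.

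Other ZNF genes give the setting. On the short arm of the same chromosome 43 of 60 rose (71.7%) and 3 fell, with a median log2 fold change of 0.58. Outside chromosome 19, 93 of 211 rose (44.1%) and 29 fell (13.7%), with a median of 0.16. Protein-coding long arm genes without a ZNF symbol had 47 of 284 that rose (16.5%) and 111 that fell (39.1%), with a median of -0.17. Their transcripts had a median GC content of 59.25%, against 42.43% for the long arm ZNF genes. Of all tested genes at 50% GC or more, 18.2% rose and 36.0% fell. The part of GC content in this contrast was not tested. Genes of like level, at 0.5 to 5 FPKM, rose in 21.6% of 7176 cases. No test of these differences between sets was run.

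Along the arm, ZNF rows whose starts lie at most 1000000 bases apart were joined, which gave 5 clusters with at least 5 of the expressed genes. They are called the first to the fifth here, in order from the centromere. The fourth cluster, at 51.57 to 53.58 Mb, held 39 of the genes, and 27 of them rose (69.2%), 2 fell and 10 did not pass, with a median log2 fold change of 0.48. In the other 4 clusters between 29.4% and 40.0% of the genes rose, nearer the 26.3% of all tested genes. The first, at 34.54 to 34.96 Mb, had 2 of 5 (1 without siNC replicate 2 and 1 without siUSP43 replicate 3) and the second, at 36.18 to 37.82 Mb, 6 of 18 with 1 that fell. In the third, at 43.53 to 45.08 Mb, 5 of 17 rose and 1 fell, and in the fifth, at 55.48 to 58.48 Mb, 15 of 42 rose and 3 fell. Their medians were 0.19, 0.25, 0.21 and 0.21. Outside these clusters, ZNF507, the neighbours ZNF780A and ZNF780B, and the neighbours ZNF574 and ZNF526 did not pass. ZNF473, a factor in histone pre-mRNA processing and also outside them, rose by 0.76 (SE 0.10).

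**Figure D2:**
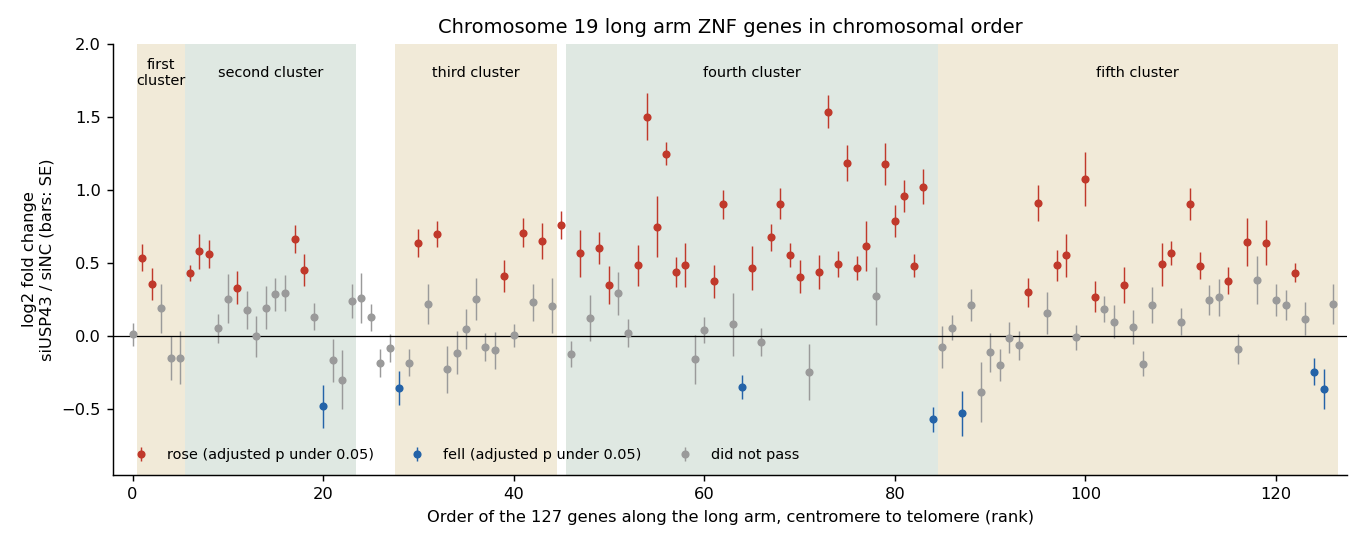
Log2 fold change of siUSP43 over siNC (vertical axis, bars are SE) for the 127 genes in their order along the long arm (horizontal axis, rank); shading marks the 5 clusters. Genes that rose fill most of the fourth cluster (27 of 39), and the first 9 genes of the fifth cluster hold 0 that rose in this fit.

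In the fourth cluster the siUSP43 libraries stood at 0.48, 0.37 and 0.60 by the same library medians and the siNC libraries at 0.02, 0.06 and -0.07. ZNF702P (chr19:52966896-53037898, minus strand), a pseudogene by its symbol, had the largest increase of all 127, from 0.58, 0.70 and 0.74 FPKM to 2.18, 1.86 and 1.88. The groups did not overlap, a condition for each of the 10 largest increases and for the decreases named here. The log2 fold change was 1.54 (SE 0.11, edgeR, Benjamini-Hochberg adjusted p = 2.442e-07). This row is not in GENCODE 29, so it has no value for GC content or for sequence shared with other genes. It was not in the fit described below that removed a trend on GC content and exonic size. A second ZNF702P row had a mean of 0.018 FPKM. ZNF616 (chr19:52113091-52139938, minus strand), a KRAB gene with 21 fingers, went from 0.56, 0.68 and 0.39 FPKM to 1.6, 1.55 and 1.5. Its lowest siUSP43 value was above its highest siNC value, with a log2 fold change of 1.50 (SE 0.16; edgeR, Benjamini-Hochberg adjusted p = 6.235e-06). ZNF766 (chr19:52269587-52296046, plus strand), a KRAB gene with 7 fingers, had 1.00, 0.97 and 0.98 FPKM in siNC and 2.32, 2.33 and 2.43 in siUSP43. Both groups were tight, and the log2 fold change was 1.25 (SE 0.08; edgeR, Benjamini-Hochberg adjusted p = 8.784e-08).

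Nearer the telomere in the same cluster, ZNF415 (chr19:53107879-53133077, minus strand, 11 fingers) went from 0.757 ± 0.065 to 1.74 ± 0.096 FPKM (SD, n = 3 each), and ZNF845 (chr19:53333749-53356906, plus strand, 26 fingers) from 0.797 ± 0.159 to 1.82 ± 0.274. The log2 fold change was 1.18 for each (SE 0.13 and 0.14). ZNF813 (chr19:53467733-53496255) had 0.74, 0.87 and 0.68 FPKM in siNC and 1.63, 1.39 and 1.67 in siUSP43, and ZNF765 (chr19:53389793-53430413) had 0.45, 0.51 and 0.39 against 0.88 in every siUSP43 library, through which alone it met the floor. Their log2 fold changes were 1.02 (SE 0.12) and 0.96 (SE 0.11). ZNF468 (chr19:52838010-52857649, minus strand), the most abundant of the 10 largest risers, had 1.62, 1.79 and 1.68 FPKM in siNC and 3.34, 2.70 and 3.55 in siUSP43, a log2 fold change of 0.91 (SE 0.11). The finger sequences above show how alike ZNF813, ZNF765 and ZNF468 are, and 53.2% of the 75-base words of ZNF468 transcripts also occur in transcripts of other genes, so the origin of its reads is uncertain. For ZNF813 and ZNF765 that share was 6.05% and 4.33%. ZNF415 overlaps ZNF347, ZNF765 overlaps ZNF525 and ZNF468 overlaps ZNF28, in each case on the same strand. Reads from the shared stretch could belong to either gene. Those neighbours also rose, by 0.47, 0.79 and 0.68. ZNF813 overlaps TPM3P6 on its own strand, and TPM3P6 did not pass.

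**Figure D3:**
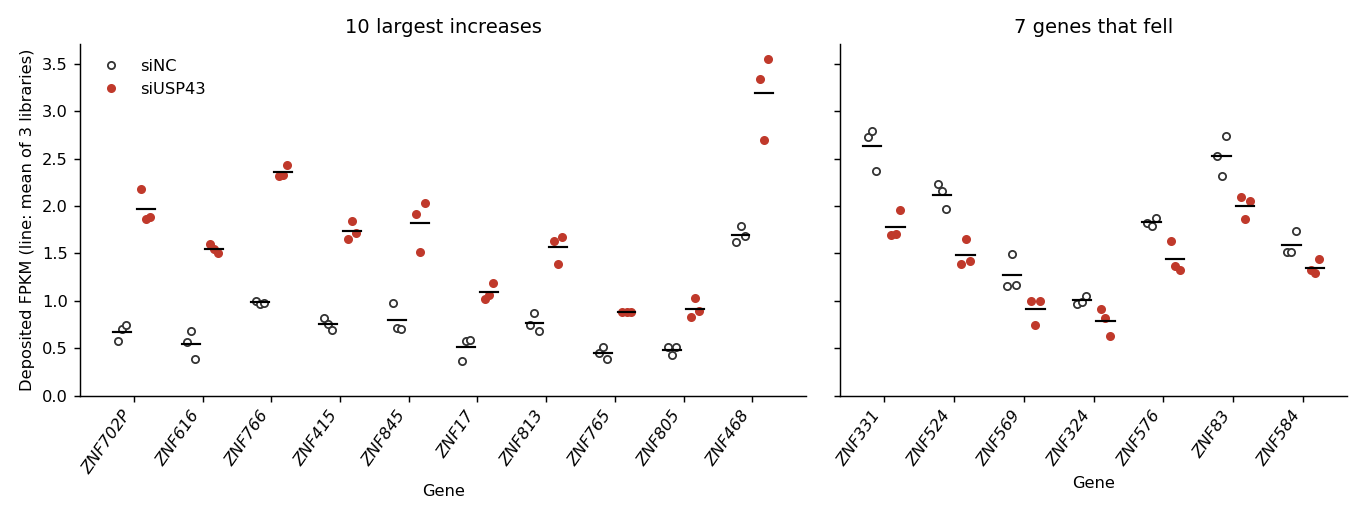
Deposited FPKM (vertical axis) in each siNC library (open points) and siUSP43 library (filled points) for the 10 genes with the largest increases (left) and the 7 that fell (right); lines are means of 3 libraries. Lack of overlap between the groups was part of the rule that chose these 17 genes. The levels lie between 0.36 FPKM (ZNF17) and 3.55 FPKM (ZNF468).

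The fourth cluster also held 2 of the 7 genes that fell. ZNF331 (chr19:53519527-53580269, plus strand), a KRAB gene known to be imprinted in some tissues, is the last of the cluster's 39 genes and follows ZNF813, which rose. It went from 2.73, 2.79 and 2.37 FPKM to 1.69, 1.70 and 1.96, below siNC in every library, with a log2 fold change of -0.57 (SE 0.09; edgeR, Benjamini-Hochberg adjusted p = 1.179e-04). ZNF83 (chr19:52594060-52690559, minus strand), for which no KRAB box was found, had 2.53, 2.32 and 2.74 FPKM in siNC and 2.09, 1.86 and 2.05 in siUSP43, a log2 fold change of -0.35 (SE 0.08; edgeR, Benjamini-Hochberg adjusted p = 0.003458). ZNF83 overlaps 4 other tested genes, 2 of them on its own strand; of the 4, 1 without a symbol rose and 3, ZNF137P among them (log2 fold change 0.08), did not pass. Of 2 other protein-coding genes tested within the span, PPP2R1A, the scaffold subunit of protein phosphatase 2A, fell by 0.27 and SPACA6 did not pass.

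The fifth cluster was uneven. With the joining distance set to 500000 bases it parted into a block at 55.48 to 56.67 Mb and one at 57.19 to 58.48 Mb. In the first block 0 of 9 genes rose and 1 fell (edgeR), with a median log2 fold change of -0.07; without siNC replicate 3 there was 1 riser, and without siUSP43 replicate 2 there were 2 that fell. In the second block 15 of 33 rose and 2 fell, with a median of 0.27. Transcripts of the first block had a median GC content of 64.9%, against 45.8% in the second. When each library's trend on GC content and exonic size was removed, 3 of the 9 rose and 0 fell by the same edgeR test, and 13 and 2 of the 33. The share of all tested genes that rose in that fit was 28.9%.

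ZNF17 (chr19:57411161-57421934, plus strand) had the largest increase of the fifth cluster, from 0.36, 0.58 and 0.59 FPKM to 1.02, 1.06 and 1.19. The groups did not overlap, and the log2 fold change was 1.08 (SE 0.18; edgeR, Benjamini-Hochberg adjusted p = 3.165e-04). ZNF805 (chr19:57240632-57262728, plus strand) went from 0.51, 0.43 and 0.51 to 0.83, 1.03 and 0.89 FPKM, a log2 fold change of 0.91 (SE 0.12), and met the floor only through siUSP43. ZIK1, a KRAB zinc finger gene without a ZNF symbol in the same span, rose by 0.82, and ZSCAN22 fell by 0.62. ZNF274, which is known to bring SETDB1 to the 3′ ends of zinc finger genes and was picked after its values were seen, had 0.96, 1.02 and 1.07 FPKM in siNC and 1.12, 1.33 and 1.12 in siUSP43. Its groups did not overlap, but at a log2 fold change of 0.21 it did not pass (SE 0.10; edgeR, Benjamini-Hochberg adjusted p = 0.1003).

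Of the genes that fell in the fifth cluster, ZNF524, which encodes a 4-finger protein reported to bind telomeric DNA, went from 2.23, 2.16 and 1.97 FPKM to 1.39, 1.65 and 1.42. Its groups did not overlap (log2 fold change -0.53, SE 0.15; edgeR, Benjamini-Hochberg adjusted p = 0.0118), and with the GC and size trend removed the call was lost (-0.30, adjusted p = 0.1301). ZNF524 overlaps FIZ1, which did not pass. ZNF324 and ZNF584 had log2 fold changes of -0.36 (SE 0.14) and -0.24 (SE 0.09), close to the threshold (edgeR, Benjamini-Hochberg adjusted p = 0.04378 and 0.04433). ZNF324 stayed past it when siUSP43 replicate 1 was left out and not when any of the other 5 libraries was (-0.22 without siUSP43 replicate 3 to -0.40 without siUSP43 replicate 2). ZNF584 stayed past it when siUSP43 replicate 3 was left out and not when any of the other 5 was (-0.17 without siNC replicate 3 to -0.28 without siNC replicate 1 or 2).

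In the first 3 clusters increases were smaller. ZNF302, in the first, had 2.89, 2.80 and 2.28 FPKM in siNC and 3.74, 3.72 and 4.19 in siUSP43, and its log2 fold change was 0.54 (SE 0.09). In the second, ZNF585B went from 0.86, 0.83 and 0.88 FPKM to 1.34, 1.30 and 1.46, a log2 fold change of 0.66 (SE 0.10), while ZNF569 went from 1.16, 1.49 and 1.17 to 1.00, 0.74 and 1.00, one of -0.48 (SE 0.15; edgeR, Benjamini-Hochberg adjusted p = 0.01439). Without siNC replicate 2, which was the highest, ZNF569 stood at -0.36 and did not pass (edgeR, Benjamini-Hochberg adjusted p = 0.08573). ZFP30 and ZFP82, KRAB genes of the same span without a ZNF symbol, rose by 0.39 and 0.34, and ZFP14 did not pass. In the third, ZNF227 rose from 1.28, 1.30 and 1.12 to 2.13, 1.97 and 1.99 FPKM, a log2 fold change of 0.71 (SE 0.10). ZNF576 went from 1.82, 1.79 and 1.87 to 1.63, 1.37 and 1.32 FPKM, a log2 fold change of -0.35 (SE 0.12; edgeR, Benjamini-Hochberg adjusted p = 0.02112). Its call was lost without siNC replicate 3 (-0.33), siUSP43 replicate 2 (-0.33) or siUSP43 replicate 3 (-0.29). Of 15 other protein-coding genes tested within the third cluster's span, 3 rose and 7 fell. The largest decreases among the 15 were those of PINLYP, at -1.34 with a mean of 0.74 FPKM, and BCL3, at -0.69. PVR had the largest increase, at 0.33.

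The 127 genes were scarce transcripts, with a median of 1.33 FPKM and 202.5 counts per library, against 4.42 FPKM and 678 counts for all tested genes. The exceptions were few. ZNF146 (chr19:36214602-36238771, plus strand), which encodes a protein made almost wholly of fingers, had 16.89, 16.04 and 15.94 FPKM in siNC and 21.62, 21.28 and 23.43 in siUSP43, the highest level of all. It rose by 0.43 on the log2 scale, without overlap of the groups (SE 0.05; edgeR, Benjamini-Hochberg adjusted p = 2.659e-05). ZNF260, a near neighbour, stood at 3.32, 3.00 and 2.77 FPKM in siNC and 4.24, 4.08 and 5.15 in siUSP43, and rose by 0.56 (SE 0.10). ZNF581, ZNF428 and ZNF787, the others among the 5 highest, did not pass, with log2 fold changes of -0.20, -0.18 and -0.01. Without siUSP43 replicate 2, ZNF581 (-0.29) and ZNF428 (-0.27) passed, and with the GC and size trend removed they stood at -0.04 and -0.0039. ZNF787, with a GC content of 70.3%, stood at 0.24 and passed once the GC and size trend was removed. Across the 127 genes log2 fold change and mean level showed little relation, with Pearson's r of -0.05 and Spearman's rho of -0.01.

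Close copies did not always share a call. ZNF417 and ZNF587, neighbours known to bind endogenous retroviral sequence, have proteins identical over 98.1% of the shorter, the highest of any pair. ZNF417 had 0.87, 0.71 and 0.76 FPKM in siNC and 1.13, 1.00 and 1.55 in siUSP43, and it rose, with a log2 fold change of 0.64 and an SE of 0.16 (Benjamini-Hochberg adjusted p = 0.00476, edgeR). ZNF587 had 2.9, 2.69 and 2.28 against 2.6, 2.15 and 2.69 FPKM, with a log2 fold change of -0.09 (SE 0.10), and its groups overlapped. ZNF585A and ZNF585B, 94.5% identical, had 0.30 (SE 0.13) and 0.66 (SE 0.10), of which only the second passed, although ZNF585A passed without siNC replicate 1 (0.40). ZNF28 and ZNF468, 91.2% identical and overlapping, both rose, by 0.68 and 0.91. ZNF419 and ZNF773, 89.6% identical, had 0.10 (SE 0.11) and 0.35 (SE 0.12). The second passed, and did not without siNC replicate 2 (0.35), siNC replicate 3 (0.28), siUSP43 replicate 1 (0.32) or siUSP43 replicate 2 (0.33). The difference within a pair was not tested, and reads of such copies may have been divided between them. For ZNF417 30.4% of 75-base words were shared with other genes, for ZNF587 14.1%, and for ZNF585A and ZNF585B 13.8% and 19.2%.

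Counts by shared sequence, overlap and strand are given as a description, with no test between classes. Of 19 genes with over 10% shared 75-base words 9 rose and 1 fell. Of 44 whose interval overlaps another tested gene 19 rose and 5 fell, and of 83 with no such overlap 37 rose (44.6%) and 2 fell. Genes on the plus strand rose in 32 of 72 cases and those on the minus strand in 24 of 55.

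The sequence features that the choice of genes did not use were read from the longest GENCODE 29 coding sequence, which 123 genes had. A KRAB A box pattern was found in 98, of which 50 rose (51.0%) and 4 fell, with a median log2 fold change of 0.31. Of 25 coding genes without it 5 rose and 3 fell, with a median of 0.01; the 5 were ZNF146, ZNF260, ZNF180, ZNF473 and ZNF134, and the pattern can miss divergent boxes. Genes with 1 to 6 fingers numbered 11, of which 0 rose and 2 fell (edgeR); 2 rose without siUSP43 replicate 3. With each library's trend on GC content and exonic size removed, 44 of the 98 and 10 of the 25 rose, and 2 of the 11. In that fit 28.9% of all tested genes rose. Of 42 with 7 to 11 fingers 20 rose, and of 70 with 12 or more 35 rose. In the fourth cluster 26 of 33 genes with the KRAB pattern rose (78.8%), against 24 of 65 elsewhere (36.9%).

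Transcript GC content moved with the same classes. Of 105 genes under 50% GC 55 rose (52.4%) and 3 fell, with a median of 0.35, and of 20 at 50% or more 0 rose and 4 fell (edgeR), with a median of -0.10. Among the 10 coding genes under 50% GC without a KRAB pattern, 5 rose, against 50 of 93 with it. Leaving out single libraries gave 1 riser among the 20 without siNC replicate 3 or siUSP43 replicate 3, and 1 to 3 that fell. Over all tested genes the direction was the same, with 32.8% of those under 50% GC rising and 19.3% falling, against 18.2% and 36.0% of the others. Across 125 genes Pearson's r between log2 fold change and GC content was -0.34 and Spearman's rho -0.25, a description over genes that share the same 6 libraries. With each library's trend on GC content and exonic size removed, 49 of the 105 and 5 of the 20 rose. Of all 125 genes 54 rose and 6 fell in that fit, where 28.9% of 13060 tested genes rose. Of the 56 risers and 7 that fell in the main fit, 49 and 5 kept their call there. The part of GC content in the result was not tested beyond that.

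**Figure D4:**
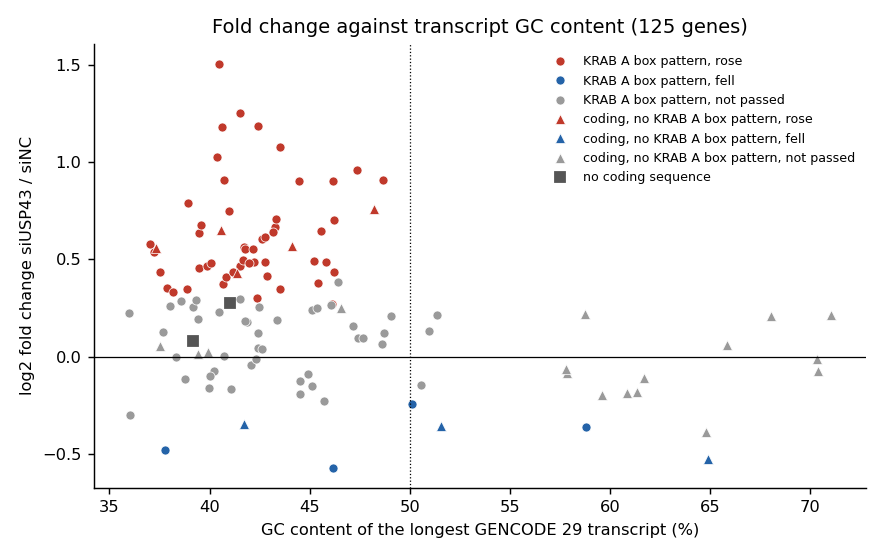
Log2 fold change of siUSP43 over siNC (vertical axis) against GC content of the longest GENCODE 29 transcript (horizontal axis, percent) for 125 genes; circles carry a KRAB A box pattern, triangles do not, squares have no coding sequence, and colour gives the call. In this fit every gene that rose lies left of the dotted line at 50%.

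Promoter windows from RefSeq (GRCh38, 250 bases before to 50 after the start site) matched 108 of the genes. They were searched for TTTGGCGC, TTTCGCGC, TTTCCCGC and TTTGCCGC on both strands, letters that E2F factors are known to bind, since the series' title names E2F1. The motif was in 6 windows (5.56%), against 3.31% of all 35116 promoters. Those were not limited to expressed genes or to a single window per gene, as the 108 were, and the difference was not tested. Of the 6 genes 4 rose (ZNF260, ZNF615, ZNF816 and ZNF547), and ZNF585A and ZNF444 did not pass. ZNF444, which did not pass, held a motif at offsets of -142 and -27 bases from its start site. ZNF260 and ZNF615, both among the risers, are shown as examples with the motif in capitals.
ZNF260 (chr19:36528409-36528438, minus strand): aggaaaagttcGCGCGAAAagctgactcaa
ZNF615 (chr19:52008312-52008341, minus strand): cccggtcaccaGCGCCAAAacgcgcccttt
Both are on the reverse strand of the window, 156 and 119 bases before the start site. ZNF615 went up by 0.35 and ZNF260 by 0.56 on the log2 scale. For ZNF615 the SE was 0.13 (edgeR, Benjamini-Hochberg adjusted p = 0.03781), and its call was not kept in every alternative. Of the 102 genes without the motif in this window 43 rose. The windows had a median GC content of 61.0% and 22.5 CpG dinucleotides, against 58.7% and 14 over all promoters, and the count of CpG showed no relation to log2 fold change over genes (Pearson's r 0.01, Spearman's rho 0.03, 108 genes).

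Of 32 listed KRAB corepressor and heterochromatin genes, all tested, 14 rose, 9 fell and 9 did not pass, where 26.3% of all tested genes rose and 26.2% fell. The median log2 fold change of the list was 0.02, near the -0.01 of all tested genes. TRIM28, which itself lies on the long arm, had 46.68, 48.69 and 49.40 FPKM in siNC and 55.69, 58.47 and 50.61 in siUSP43. It rose by 0.17 without overlap of the groups (SE 0.06; edgeR, Benjamini-Hochberg adjusted p = 0.01967). The call was lost without siNC replicate 1 (0.15), siNC replicate 2 (0.18), siUSP43 replicate 1 (0.17) or siUSP43 replicate 2 (0.12). SETDB1, the H3K9 methyltransferase, had 3.12, 3.33 and 3.31 against 2.71, 3.05 and 2.83 FPKM, a log2 fold change of -0.20 (SE 0.07; edgeR, Benjamini-Hochberg adjusted p = 0.03124). That call was lost in 9 of 16 alternatives, among them those without siNC replicate 2 (-0.18), siNC replicate 3 (-0.18) or siUSP43 replicate 1 (-0.15).

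TASOR, a subunit of the HUSH complex, had the largest increase of the list, from 6.54, 6.38 and 5.99 FPKM to 10.67, 9.53 and 11.49, a log2 fold change of 0.73 (SE 0.07; edgeR, Benjamini-Hochberg adjusted p = 1.478e-06). EHMT2, the H3K9 methyltransferase G9a, had the largest decrease, from 6.70, 7.47 and 7.26 to 5.05, 4.89 and 4.75, one of -0.56 (SE 0.06; edgeR, Benjamini-Hochberg adjusted p = 9.398e-06). Of the other HUSH genes MORC2, its ATPase partner, rose by 0.40 whereas MPHOSPH8 and PPHLN1 did not pass. Of the HP1 genes CBX1 rose by 0.39, and CBX3 and CBX5 fell by 0.22 and 0.19.

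**Figure D5:**
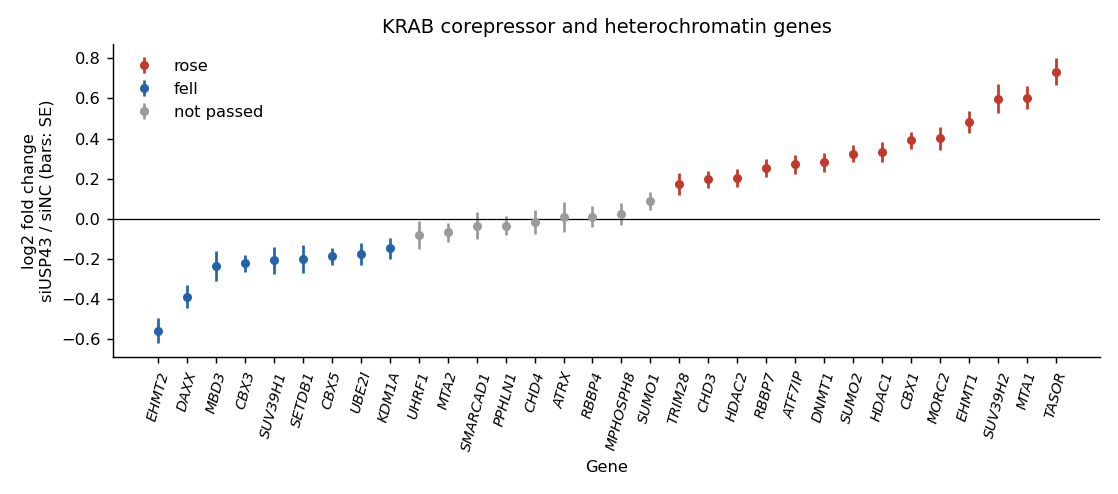
Log2 fold change of siUSP43 over siNC (vertical axis, bars are SE) for the 32 KRAB corepressor and heterochromatin genes, ordered by value; colour gives the call. Values run from -0.56 (EHMT2) to 0.73 (TASOR), with 14 genes that rose and 9 that fell.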

How the data were processed

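RNA was sequenced from 3 siNC and 3 siUSP43 samples of T24 cells. The deposited table gives raw read counts and FPKM per gene for each library, per the file headers. The submitters' processing notes name cutadapt 2.6, HISAT2 2.2.1 and the build GRCh38; the counter, annotation release, strand setting and treatment of multiply mapped reads are not given in the sources used here. Groups and numbers come from the sample titles.

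Counts of the 13420 genes that averaged 0.5 FPKM or more were tested with edgeR 4.0.16 in R 4.3.3 (quasi-likelihood, TMM, group as the only term, two-sided, Benjamini-Hochberg adjusted p under 0.05). That step was also run on simulated counts in which few genes changed and replicates were drawn independently. Its error rate where 52.5% of genes pass, as here, was therefore not tested. Fold changes are siUSP43 over siNC. The genes and lists were chosen with earlier results of these data known. Total gene counts were 21430574 to 25577200 per library, and a gene of the set had 34 to 2935 counts in a library. Replicate pairs differed by more than counting noise (chi-square per degree of freedom 2.21 to 13.5). Of the 127 genes 125 were matched to GENCODE 29 by identifier; the deposited table gives no biotype, so protein-coding is GENCODE's term. Fingers, KRAB boxes and protein identity (Biopython 1.88) come from translated coding sequences.

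Genes named by rule are USP43 and the 10 largest increases and decreases past the test without overlap of the groups (7 fell in all). The rule also takes the 5 highest levels, the largest change each way in each cluster and the 3 rows on either side of the floor. It further takes the 4 most alike protein pairs, TRIM28, SETDB1 and the extremes of the corepressor list. Other genes, among them ZNF274, ZNF473, ZNF615, neighbours within the spans and further corepressor genes, were named outside that rule. Other scalings, DESeq2 1.42.0, limma 3.58.1 on log2(FPKM + 1) and log2(FPKM + 0.1), other floors, a replicate block, left-out libraries, other cluster distances and narrower gene sets were the alternatives. Removal of a GC and size trend was added after seeing the data, as was a restriction to genes with under 10% shared 75-base words.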

Additional observations from a re-analysis of the deposited data

How the results depend on the processing

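The number of long arm ZNF genes that rose (56) lay between 37 and 59 over 19 alternatives; the lowest is the count among the 83 genes that overlap no other tested gene, of which 2 fell. The number that fell (7) was 4 with limma on log2(FPKM + 0.1), 4 under quantile normalization, and 4 to 7 with single libraries left out (4 without siNC replicate 2 or siNC replicate 3). The number that rose was 50 to 59 with single libraries left out. The median log2 fold change (0.26) was 0.15 with limma on log2(FPKM + 1), 0.16 with quantile normalization, both fits with an added 1 that is near the genes' own level, and 0.25 to 0.30 with single libraries left out. Without a filter on FPKM 11.3% of all genes rose, against 26.3%. Of the 56 genes that rose 45, and of the 7 that fell ZNF331 and ZNF83, kept their call in every alternative that fitted the gene; 90 of the 127 met a floor of 1 FPKM. The lowest count of a gene in a library was 34, and counts of this size limit the precision of single genes. The fourth cluster had 22 risers of the 30 genes that met a floor of 1 FPKM and 24 to 29 in the other alternatives. At a joining distance of 2000000 bases 3 clusters remained in place of 5. ZNF787 changed sign, from -0.01 to 0.0008 with limma on log2(FPKM + 1), 0.0006 with log2(FPKM + 0.1), 0.0148 under quantile normalization, 0.24 with the GC and size trend removed, and -0.1139 to 0.0748 with single libraries left out (0.0748 without siNC replicate 3, 0.0082 without siUSP43 replicate 2, 0.0705 without siUSP43 replicate 3); the cause was not tested.

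Same-numbered libraries did not deviate together (correlations of 0.03, -0.10 and -0.14), so the numbers were not taken to pair the samples. With the replicate block 54 genes rose and 6 fell, the median was 0.25, and USP43 was at -1.41.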
